A study of Mus musculus with 21 samples.

Results

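Nuclear receptors are transcription factors that bind DNA and, for many of them, change their activity when a small lipid-soluble ligand binds. The mouse genes of this family on the array were chosen by name, and each was represented by the probe for it with the highest mean Cy3 signal over all arrays. This gave 46 receptor genes of 34844 gene names on the array; all 46 had a probe, and 37 of them were among the 21320 genes tested. RNA came from mouse small-intestinal organoids, gel cultures of epithelium that start from crypts. The organoids carried tet-O driven, N-terminally truncated and myc-tagged human beta-catenin (ΔN89), made when doxycycline is present, with the M2-rtTA activator expressed from the ROSA26 promoter; the mice were made from KH2 embryonic stem cells, and all groups carry both transgenes. All cultures had first been grown with doxycycline. On 7 arrays (letters A to G) they then stayed in doxycycline with vehicle for 24 h. Other cultures kept in doxycycline were given a compound at 2 µM for 24 h. Compounds 2 and 9 were each used on 3 arrays (letters A, B and C), and compound 6 on 4 (letters D, E, F and G). On 4 further arrays (D to G), called withdrawal here, doxycycline was removed for 24 h and vehicle given. The compounds inhibit CDK8 and CDK19, which are kinases that join Mediator, the complex that links transcription factors to RNA polymerase II. How far each compound inhibited these kinases in these cultures was not analysed here. The comparisons ask how receptor genes respond when the mutant beta-catenin is turned off and when the Mediator kinases are inhibited while it stays on. No organoids without the transgene were analysed here, so what doxycycline alone does and what the transgene does cannot be told apart.

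In the intestine several receptors read the contents of the gut. The bile acid receptor Nr1h4 (FXR), the vitamin D receptor Vdr, the retinoic acid receptors, the fatty acid sensors of the PPAR group, the oxysterol receptors Nr1h2 and Nr1h3 (LXR) and the xenobiotic receptors Nr1i2 (PXR) and Nr1i3 (CAR) bind DNA mostly as pairs with an RXR partner. Others, such as Hnf4a and Hnf4g, hold the enterocyte programme, and the orphan receptors Nr4a1 to Nr4a3 are controlled mainly by how much of them is made, as immediate early genes. Coactivators and corepressors, among them the Mediator complex itself, carry the receptor's signal to the polymerase.

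Values are log2 ratios of sample (Cy3) over a universal mouse reference RNA (Cy5), after loess normalisation, and changes are differences of these ratios ± SE between arrays with the same set of letters. A gene is said to have risen or fallen where limma's moderated test gave a Benjamini-Hochberg adjusted p under 0.05 over all 21320 genes. The labels do not say whether the arrays are separate cultures or animals, so the p-values cover only the spread among these samples and that spread may be technical, and the number of arrays limits the precision. In RNA from whole organoids, fewer cells of a type and less RNA per cell cannot be told apart. The set A to C and the set D to G were scanned on different days and scanners, and the vehicle arrays of the 2 sets did not overlap for 18 of the 37 receptor genes, near the 49.4% of all tested genes, so levels were compared only within a set. Arrays with the same letter deviated together, and the main fit does not pair them. The fit with the letter as a block is given by counts and, for many of the genes whose call it changes, by gene. All 12 epithelial markers stood well above background on all 21 arrays, as did 6 of 10 fibroblast markers, 9 of 12 leukocyte markers and 2 of 7 endothelial markers. Those above background on all arrays included Col1a1 and Dcn of fibroblasts, Ptprc and Cd3e of leukocytes, and Pecam1 and Kdr of endothelium. Markers at background on every array were Pdgfra, Lum and Des (3 of 10 fibroblast markers), Cd8a among 2 of 12 leukocyte markers, and Cdh5, Emcn and Cldn5 (3 of 7 endothelial markers). Vehicle F stood apart from vehicles D, E and G: its mean over 15 cell cycle genes was -3.72, against -1.81 to -1.65. Vehicles A to C were also low, at -4.02 to -3.92. Centring each array on its median in place of loess moved the median change of all genes to -0.12 with compound 2 and -0.11 with compound 6, and the share of all passing genes that were higher from 62.4% to 14.4% and from 45.9% to 19.9%. For withdrawal that share was 35.3%, and 47.1% with Agilent's own log ratios.

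Of the 46 receptor genes, 9 were well above background on fewer than 3 arrays and were not tested. Rarb, Rora, Nr2e1, Esr1, Pgr, Nr4a3 and Nr0b1 reached that mark on 0 arrays, and Rorb and Esrrb on 1 array each. A second, dimmer probe of Rorb reached it on 4 arrays and passed in no comparison (-0.21 after withdrawal, limma adjusted p = 0.136). In contrast, 35 of the 37 tested genes were well above background on all 21 arrays. The exceptions were Nr2e3, a receptor best known from photoreceptors, on 11 arrays, and Nr0b2, the small heterodimer partner (SHP) that represses other receptors, on 13 arrays.

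Withdrawal of doxycycline and compound 6 each changed 6 receptor genes, compound 2 changed 1 and compound 9 changed none. After withdrawal 5 receptor genes rose and 1 fell, 16.2% of the 37 tested, where 20.7% of all genes passed. With compound 6, 4 rose and 2 fell, 16.2%, where 24.9% of all genes passed. With compound 2 only Nr1h3 fell, 2.7% of the receptors against 5.32% of all genes. With compound 9 limma's test gave 0 receptor genes, against 0% of all genes; at an unadjusted p under 0.05 there were 251 genes and 0 receptors. In this fit, the share of receptors that passed was thus at or below that of all genes in each of these comparisons. The median receptor change was 0.12 after withdrawal, 0.06 with compound 6, 0.04 with compound 2 and -0.02 with compound 9, beside -0.01, -0.04, 0.00 and -0.01 over all genes. With the letter as a block, 13 receptors rose and 3 fell after withdrawal (39.2% of all genes passed), 9 rose and 6 fell with compound 6 (41.3%), and 5 rose and 1 fell with compound 2 (17.4%). There the receptor share after withdrawal, 16 of 37, lay above that of all genes. The shares with compound 6 (15 of 37) and compound 2 (6 of 37) lay just below it. Leaving out vehicle F alone gave 11 receptors after withdrawal (34.6% of all genes passed) and 13 with compound 6 (34.4%), and leaving out vehicle G gave 3 after withdrawal (13.6%).

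**Figure D1:**
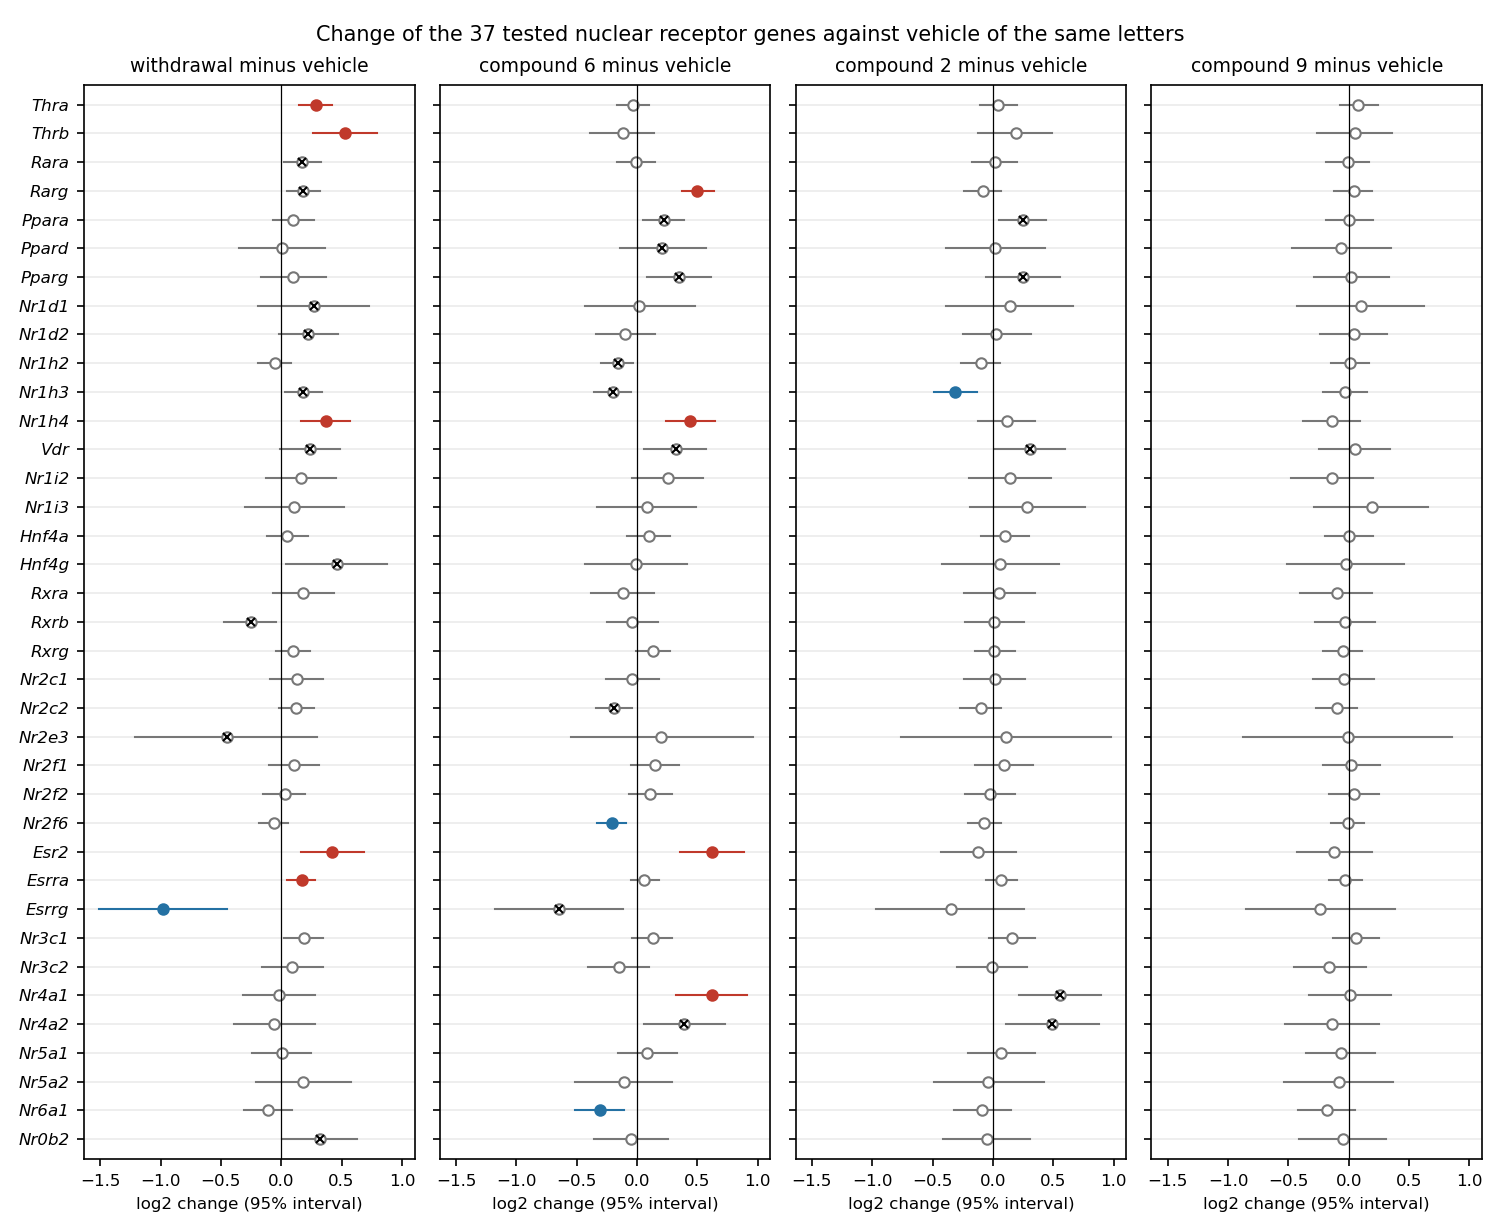
Log2 change of each of the 37 tested receptor genes against vehicle arrays with the same letters; points are the fitted changes and lines their 95% intervals. Filled points passed (red rose, blue fell), open points did not, and a cross marks a gene that passed only with the letter as a block; compound 9 has no filled point and no cross.

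After withdrawal both thyroid hormone receptor genes rose. Thrb, which encodes the beta receptor for the hormone T3, lay at 3.47, 3.59, 3.46 and 3.74 in vehicles D, E, F and G and at 4.10, 4.08, 4.17 and 4.02 after withdrawal. The groups did not overlap, and every withdrawn array was higher than its vehicle. The mean went from 3.57 ± 0.13 to 4.09 ± 0.06 (SD, n = 4 each), a change of 0.53 ± 0.13 (limma adjusted p = 0.007). On slide 3 alone the difference was 0.53 and on slide 5 it was 0.55. For letters D to G the slides do not pair the letters. Slide 3 holds vehicle E alone of the vehicles, slide 4 vehicle G alone, and slide 5 vehicles D and F. The within-slide differences given for these letters, here and below, therefore mix letters. Its probe matches chromosome 14, bases 18868800 to 18868859 of mm9, and a second probe, at 18869432 to 18869491, changed by only 0.19, which did not pass (adjusted p = 0.325). Thra, the gene of the alpha receptor through which T3 drives crypt cell growth, rose by 0.29 ± 0.06 (adjusted p = 0.0047), from 1.33 to 1.49 in vehicle to 1.67 to 1.80 after withdrawal; its second probe gave 0.18 (adjusted p = 0.118). Neither gene passed with compound 6, where Thra changed by -0.03 and Thrb by -0.12.

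The promoter of Thrb is shown for the receptor half-site that thyroid hormone, retinoic acid and many other receptors recognise, AGGTCA, in capitals here and searched on both strands. RefSeq promoters of build GRCm38.p6, from 250 bases before to 50 after the start site, were given for 42 of the 46 receptor genes. AGGTCA was found in 7 of the 42 and in 16.3% of all 32851 promoters of that length. The sequence is chr14:17660710-17661009 on the + strand, with the match on the same strand starting at position -184 from the start site.
Thrb: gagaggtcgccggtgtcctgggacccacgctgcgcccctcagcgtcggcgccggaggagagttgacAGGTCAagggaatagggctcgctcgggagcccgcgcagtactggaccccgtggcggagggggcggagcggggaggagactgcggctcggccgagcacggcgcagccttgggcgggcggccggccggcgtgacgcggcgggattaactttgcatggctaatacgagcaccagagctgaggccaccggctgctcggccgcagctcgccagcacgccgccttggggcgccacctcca

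Among the estrogen receptors and their relatives, the genes moved in opposite directions. Esrrg, an orphan receptor that promotes oxidative metabolism, lay at 3.10, 3.49, 2.70 and 3.42 in vehicles D to G and at 2.39, 2.15, 2.14 and 2.10 after withdrawal. All withdrawn arrays were below all vehicle arrays. The change was -0.98 ± 0.25 (adjusted p = 0.011), with -1.26 on slide 3 and -0.80 on slide 5, and -0.87 on a second probe. This call rests on the normalisation: Agilent's log ratio gave -1.17 (adjusted p = 0.0721) and the deposited series matrix 0.20. Esrra, a close relative that works with the coactivator PGC1, rose by 0.17 ± 0.06 (adjusted p = 0.0409), and leaving out any one of 6 of the 8 arrays (all except vehicle F and withdrawal F) ended this call, with adjusted p from 0.0523 to 0.123. Esr2, the estrogen receptor beta gene, rose by 0.42 ± 0.13 (adjusted p = 0.0235), though its vehicle range of -0.70 to -0.16 and withdrawal range of -0.21 to 0.13 overlapped. Without vehicle E it changed by 0.35 (adjusted p = 0.0984), and without vehicle G, withdrawal D or withdrawal F the adjusted p was 0.0604 to 0.0765. Nr1h4, the bile acid receptor FXR, rose by 0.37 ± 0.10 (adjusted p = 0.0126), from 3.85 to 4.19 in vehicle to 4.28 to 4.42; without vehicle G the change was 0.31 (adjusted p = 0.0523).

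Markers of crypt cells moved with withdrawal. Of 13 tested stem cell markers 11 fell, with per-array means of 1.01 to 2.20 in vehicles D to G and 0.19 to 0.35 after withdrawal, and of 15 tested cell cycle genes 12 fell, from -3.72 to -1.65 in vehicle to -4.01 to -3.22. Of 15 enterocyte markers 7 rose, from 6.14 to 6.35 to 6.46 to 6.58. In the order named these are 84.6%, 80% and 46.7% of the lists, beside 20.7% of all genes. The part of these markers in the receptor results was not tested.

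With compound 6 the retinoic acid receptor gamma gene, Rarg, gave the smallest adjusted p of any receptor. It lay at -2.90, -2.93, -2.90 and -2.80 in vehicles D to G and at -2.45, -2.33, -2.39 and -2.35 with compound 6. The arrays of each group lay close together and the groups were well apart. The change was 0.50 ± 0.06 (limma adjusted p = 3.34e-05), with same-letter differences of 0.45 to 0.59 and within-slide differences of 0.59, 0.41 and 0.45 on slides 3, 4 and 5. Leaving out any 1 array gave 0.49 to 0.53. After withdrawal Rarg lay at -2.77, -2.72, -2.79 and -2.53, a change of 0.18 ± 0.06 that did not pass (adjusted p = 0.0517; 0.0104 in the block fit). Compound 6 was 0.32 ± 0.06 above withdrawal (adjusted p = 0.00247), which passed, although median centring gave 0.14 (adjusted p = 0.358). The probe matches chromosome 15, bases 102065371 to 102065430 of mm9. The other retinoic acid receptor gene tested, Rara, changed by -0.01 with compound 6.

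The promoter of Rarg, chr15:102257473-102257772 (GRCm38.p6, - strand), is shown for the single AGGTCA half-site found in it, which reads TGACCT here because it lies on the other strand. It is one of the 7 receptor promoters with a match.
Rarg: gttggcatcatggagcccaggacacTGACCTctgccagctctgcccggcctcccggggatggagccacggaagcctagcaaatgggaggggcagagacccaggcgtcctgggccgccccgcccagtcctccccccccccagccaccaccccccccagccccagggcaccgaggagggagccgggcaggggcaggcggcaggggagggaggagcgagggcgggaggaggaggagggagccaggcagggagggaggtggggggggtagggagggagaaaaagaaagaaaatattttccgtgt

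Esr2 and Nr1h4 rose with compound 6 as well as after withdrawal; the 2 comparisons share their vehicle arrays. Esr2 lay at -0.43, -0.70, -0.16 and -0.61 in vehicles D to G and at 0.21, 0.26, 0.35 and -0.22 with compound 6. Each treated array was above its own vehicle, and only compound 6 G lay below vehicle F. The change was 0.62 ± 0.13 (adjusted p = 0.00159), with 0.72, 0.96 and 0.51 on slides 3, 4 and 5; the probe matches chromosome 12, bases 77221426 to 77221485 of mm9. Nr1h4 rose by 0.44 ± 0.10 (adjusted p = 0.00278), to 4.41 to 4.50 from 3.85 to 4.19, with no overlap; median centring gave 0.24 (adjusted p = 0.103). The 2 receptors that fell with compound 6, Nr2f6 and Nr6a1, are orphan repressors. Nr2f6 fell by 0.21 ± 0.06 (adjusted p = 0.013) and, without compound 6 F, by 0.15 (adjusted p = 0.0545). Nr6a1, the germ cell nuclear factor gene, fell by 0.31 ± 0.10 (adjusted p = 0.0255), and the adjusted p rose to between 0.0546 and 0.091 when compound 6 D, compound 6 G, vehicle D or vehicle E was left out. Esrrg had a larger change that missed the threshold in the main fit and passed with the block. It lay at 2.36, 2.52, 2.26 and 2.96 with compound 6, each below the vehicle of its letter though the groups overlapped. The change was -0.65 ± 0.25 (adjusted p = 0.0695; 0.00791 with the block), with -0.75, -1.16 and -0.54 on slides 3, 4 and 5. Its second probe passed without the block (-0.67, adjusted p = 0.039), as did median centring (-0.52, adjusted p = 0.045). No background correction, Agilent's log ratio and Cy3 alone did not pass, and the series matrix gave 1.28 (adjusted p = 0.207). Nr2c2 changed by -0.19 (adjusted p = 0.0548, and 0.0117 with the block), and its second probe by -0.27 (adjusted p = 0.019). Median centring without the block gave -0.34 (adjusted p = 0.00814), and the other scalings did not pass.

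**Figure D2:**
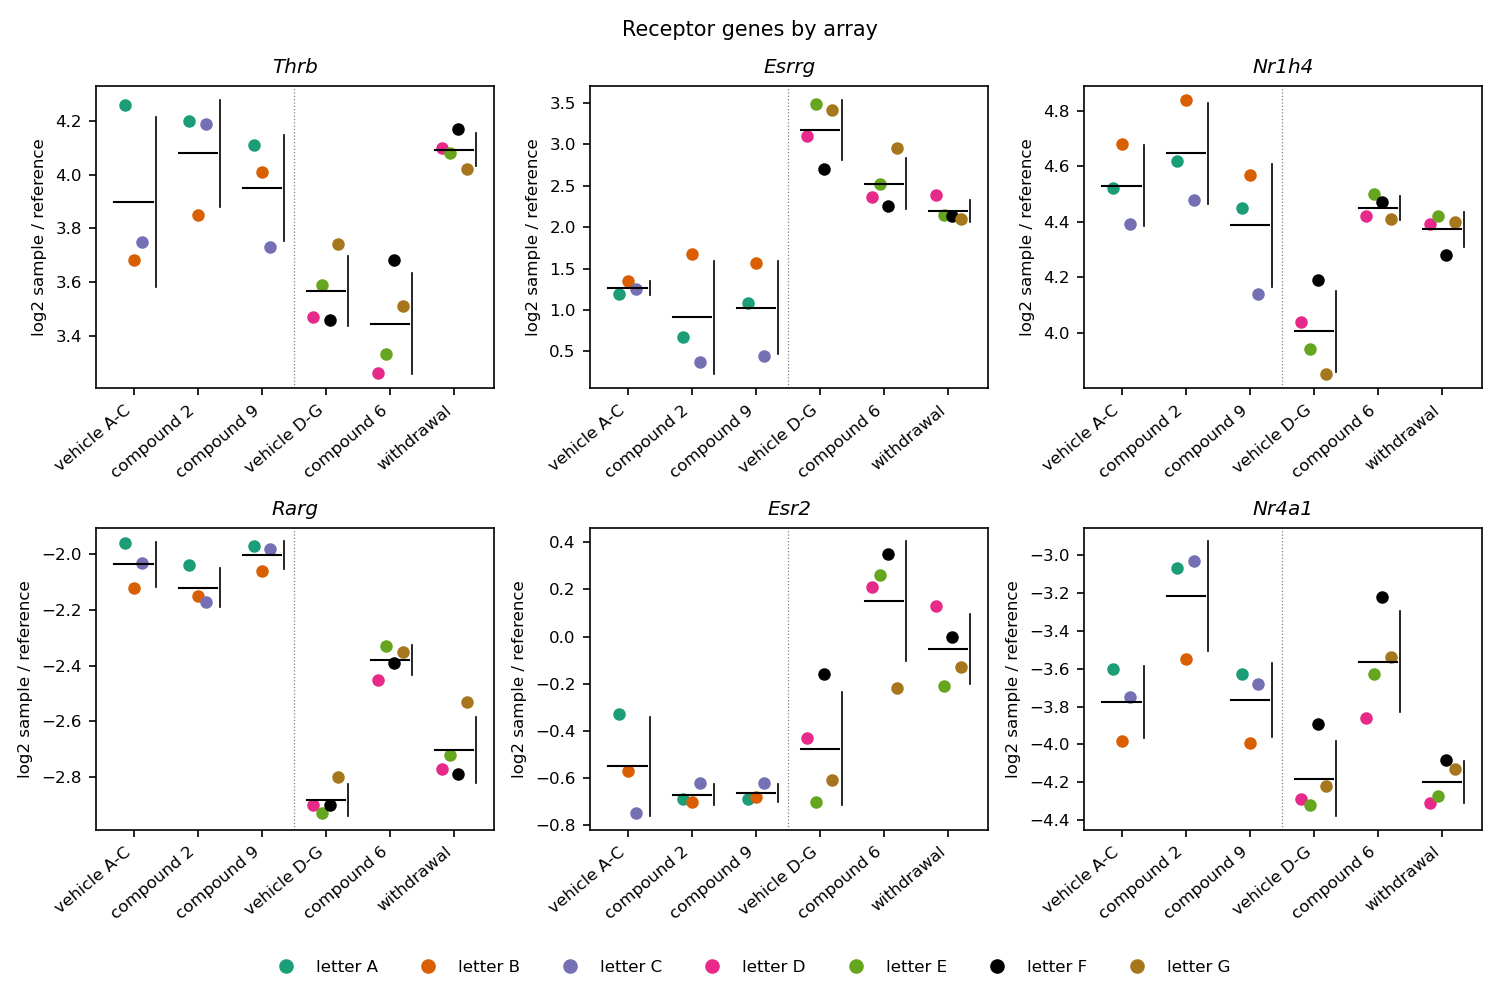
Log2 sample over reference of 6 receptor genes in each array, coloured by letter, with the mean of each group as a horizontal line and its SD as the vertical line beside it; the dotted line parts the sets A to C and D to G. Rarg and Nr4a1 with compound 6 lie above all vehicles D to G, whereas Thrb lies apart from vehicle only after withdrawal.

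Nr4a1, which encodes the immediate early receptor Nur77, rose with compound 6 and was also higher in every compound 2 array than in its vehicle. It lay at -4.29, -4.32, -3.89 and -4.22 in vehicles D to G and at -3.86, -3.63, -3.22 and -3.54 with compound 6. Letter F was the highest in both groups, and the same-letter differences of 0.43 to 0.70 were close to each other. The change was 0.62 ± 0.14 (adjusted p = 0.00376), with 0.74, 0.99 and 0.23 on slides 3, 4 and 5. These within-slide values mix letters, and the 0.99 on slide 4 sets compound 6 F against vehicle G. With compound 2 the values were -3.07, -3.55 and -3.03, against -3.60, -3.98 and -3.75 in vehicles A to C. This change, 0.56 ± 0.16, missed the threshold (adjusted p = 0.0531) and passed in the block fit (adjusted p = 2e-04). With compound 9 the values were -3.63, -3.99 and -3.68, so that all 3 lay within 0.07 of their vehicles, and after withdrawal they were -4.31, -4.27, -4.08 and -4.13. Compound 6 was 0.64 ± 0.14 above withdrawal (adjusted p = 0.00486), which passed in all the alternatives run. The probe matches chromosome 15, bases 101105071 to 101105130 of mm9.

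Nr4a2, the related Nurr1 gene, passed only with the letter as a block. It lay at 0.58, -0.13 and 0.20 in vehicles A to C and at 0.89, 0.72 and 0.51 with compound 2, a change of 0.49 ± 0.18 (adjusted p = 0.14; 0.00889 with the block). With compound 6 the change was 0.39 ± 0.16 (adjusted p = 0.0796; 0.00592 with the block), and its second probe gave 0.27 with compound 2 and 0.19 with compound 6. Nr4a3, the third member, was well above background on 0 arrays and has no value.

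The promoters of the 3 Nr4a genes are printed because Nr4a1 and Nr4a2 moved together and because these genes are known to respond to cyclic AMP through CREB. The full CREB palindrome TGACGTCA was in none of the 3; among the receptors it was found in Nr2e1 and Nr6a1, 2 of 42, and in 1.79% of all promoters. The half-site TGACG, chosen after the sequences were seen and searched on both strands (it is part of TGACGTCA, which counts as 2 matches), was in 14 of 42 receptor promoters and in 20.8% of all. The promoters of Nr4a1, Nr4a2 and Nr4a3 each hold 4 matches, a count that describes the sequences from which the motif was chosen and tests nothing. The matches are in capitals, as TGACG or, on the other strand, CGTCA. The sequences are chr15:101266596-101266895 (+), chr2:57123954-57124253 (-) and chr4:48045055-48045354 (+), all of GRCm38.p6.
Nr4a1: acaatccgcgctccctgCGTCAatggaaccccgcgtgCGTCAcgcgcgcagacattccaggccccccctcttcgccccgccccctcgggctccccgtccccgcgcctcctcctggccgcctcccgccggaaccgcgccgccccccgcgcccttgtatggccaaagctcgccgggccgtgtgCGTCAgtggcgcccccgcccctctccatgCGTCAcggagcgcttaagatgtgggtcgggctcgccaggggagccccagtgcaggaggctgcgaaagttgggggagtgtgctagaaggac
Nr4a2: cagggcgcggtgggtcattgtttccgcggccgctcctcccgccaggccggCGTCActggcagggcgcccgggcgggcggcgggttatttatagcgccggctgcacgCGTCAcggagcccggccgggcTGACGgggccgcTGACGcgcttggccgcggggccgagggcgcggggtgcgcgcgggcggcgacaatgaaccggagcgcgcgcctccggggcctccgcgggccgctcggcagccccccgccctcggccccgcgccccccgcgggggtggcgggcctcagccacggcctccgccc
Nr4a3: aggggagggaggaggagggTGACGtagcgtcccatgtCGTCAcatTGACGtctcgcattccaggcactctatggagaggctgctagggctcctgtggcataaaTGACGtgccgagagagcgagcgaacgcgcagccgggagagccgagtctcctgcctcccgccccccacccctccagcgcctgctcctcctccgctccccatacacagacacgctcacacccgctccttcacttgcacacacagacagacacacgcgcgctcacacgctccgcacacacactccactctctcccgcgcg

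Withdrawal and compound 6 act on the same letters and could be compared directly, and 6 of 37 receptors differed (2 higher and 4 lower with compound 6, 16.2%), where 15.1% of all genes passed. Beside Rarg and Nr4a1, which were higher with compound 6, both thyroid hormone receptors were lower: Thrb by 0.65 on the log2 scale (-0.65 ± 0.13, adjusted p = 0.00189; 3.26 to 3.68 against 4.02 to 4.17) and Thra by 0.32 (-0.32 ± 0.06, adjusted p = 0.00246; second probe -0.24, adjusted p = 0.0591). Nr1h3, the LXR alpha gene, was also lower, at 3.64, 3.58, 3.37 and 3.56 with compound 6 and 3.88, 4.05, 3.76 and 4.00 after withdrawal, without overlap, a difference of -0.38 ± 0.07 (adjusted p = 0.00164). Nr2c2, an orphan receptor (TR4), differed by -0.31 ± 0.07 (adjusted p = 0.00508). Against vehicle neither Nr1h3 nor Nr2c2 passed in either treatment in the main fit, although the second probe of each fell with compound 6. The differences of Thrb, Nr1h3, Nr2c2 and Nr4a1 passed in every alternative run, other probes included where the gene has one. With the letter as a block 7 receptors were higher and 11 lower. These are 18 of 37, a share above the 34.2% of all genes that passed.

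Compound 2 lowered Nr1h3 from 3.71, 3.72 and 3.65 in vehicles A to C to 3.30, 3.47 and 3.38, a change of -0.31 ± 0.09 (limma adjusted p = 0.0393). The arrays of the groups did not overlap, and within slides the differences were -0.33 and -0.27. The call ended when compound 2 A, compound 2 C or any of the 3 vehicle arrays was left out (adjusted p from 0.0714 to 0.163), and the second probe gave -0.30 (adjusted p = 0.122). With compound 6 Nr1h3 changed by -0.20 ± 0.07 (adjusted p = 0.0508; 0.00653 with the block), and the second probe by -0.37 (adjusted p = 0.0063). The related Nr1h2 (LXR beta) changed by -0.16 with compound 6 (adjusted p = 0.0728; 0.014 with the block).

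Of the 3 pairs of compounds, 2 were compared. Compounds 9 and 2 share letters, dose and time, and 0 of 37 receptors differed (4.82% of all genes passed; 5 receptors and 3676 genes at an unadjusted p under 0.05). The largest differences were those of Nr4a2, at -0.63 (95% interval -1.02 to -0.25, adjusted p = 0.0554), and Nr4a1, at -0.55 (-0.89 to -0.21, adjusted p = 0.0608). In the block fit, where 16% of all genes passed, compound 9 was lower than compound 2 in Ppara, Nr1h4, Vdr, Nr4a1 and Nr4a2 and higher in Nr1h3. The 37 changes with compound 9 against vehicle ran from -0.24 (Esrrg) to 0.19 (Nr1i3), and their 95% intervals together from -0.88 to 0.86. Compounds 6 and 2 were given to different letters, so the difference of their changes was tested. Rarg alone differed, by 0.58 ± 0.10 (adjusted p = 0.00906), 1 of 37 receptors or 2.7% where 0.568% of all genes passed. Compound 2 had changed it from -1.96, -2.12 and -2.03 to -2.04, -2.15 and -2.17. Without the set term no vehicle array enters this difference, and the compound arrays are compared directly across the sets. It was then -0.26 (adjusted p = 0.311). Vehicles A to C lay at -2.12 to -1.96 and vehicles D to G at -2.93 to -2.80. Median centring gave 0.60 (adjusted p = 0.0638). For Nr4a1 the difference between the compounds was 0.06 (95% interval -0.39 to 0.51), and for Esr2 it was 0.74 (0.34 to 1.15, adjusted p = 0.0859; 0.00971 with the block).

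On their chosen probes, several nutrient receptors passed only when the letter was a block. Vdr lay at 3.59, 3.50, 4.12 and 3.67 in vehicles D to G, at 3.95, 3.92, 4.33 and 3.95 with compound 6 and at 3.86, 3.84, 4.25 and 3.90 after withdrawal. Letter F was the highest in each group, so the groups overlapped, yet every treated array was above its vehicle. The changes of 0.32 and 0.24 did not pass (adjusted p = 0.0646 and 0.168) and did with the letter as a block (2.32e-04 and 0.00184). In set A to C, where no letter stood apart, Vdr was at 3.56, 3.67 and 3.66 in vehicle and at 3.92, 3.98 and 3.93 with compound 2, a change of 0.31 (adjusted p = 0.241; 0.00242 with the block). Pparg, the receptor known from fat cells and the colon, changed by 0.35 with compound 6 (adjusted p = 0.0538; 7.42e-04 with the block) and by 0.25 with compound 2 (0.414; 0.037 with the block), but by 0.10 after withdrawal, which passed in neither fit (0.629; 0.264 with the block). Ppara, the fatty acid oxidation receptor, changed by 0.22 with compound 6 and 0.25 with compound 2 (0.0564 and 0.152; 0.0138 and 0.0351 with the block), and its other probes gave 0.32 (adjusted p = 0.0349, without the block) and -0.03 (0.933) with compound 6 and 0.40 (0.0665) and 0.14 (0.827) with compound 2. Ppard changed by 0.21 with compound 6 (0.4; 0.0265 with the block). With compound 9 none of these 4 passed in either fit.

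**Figure D3:**
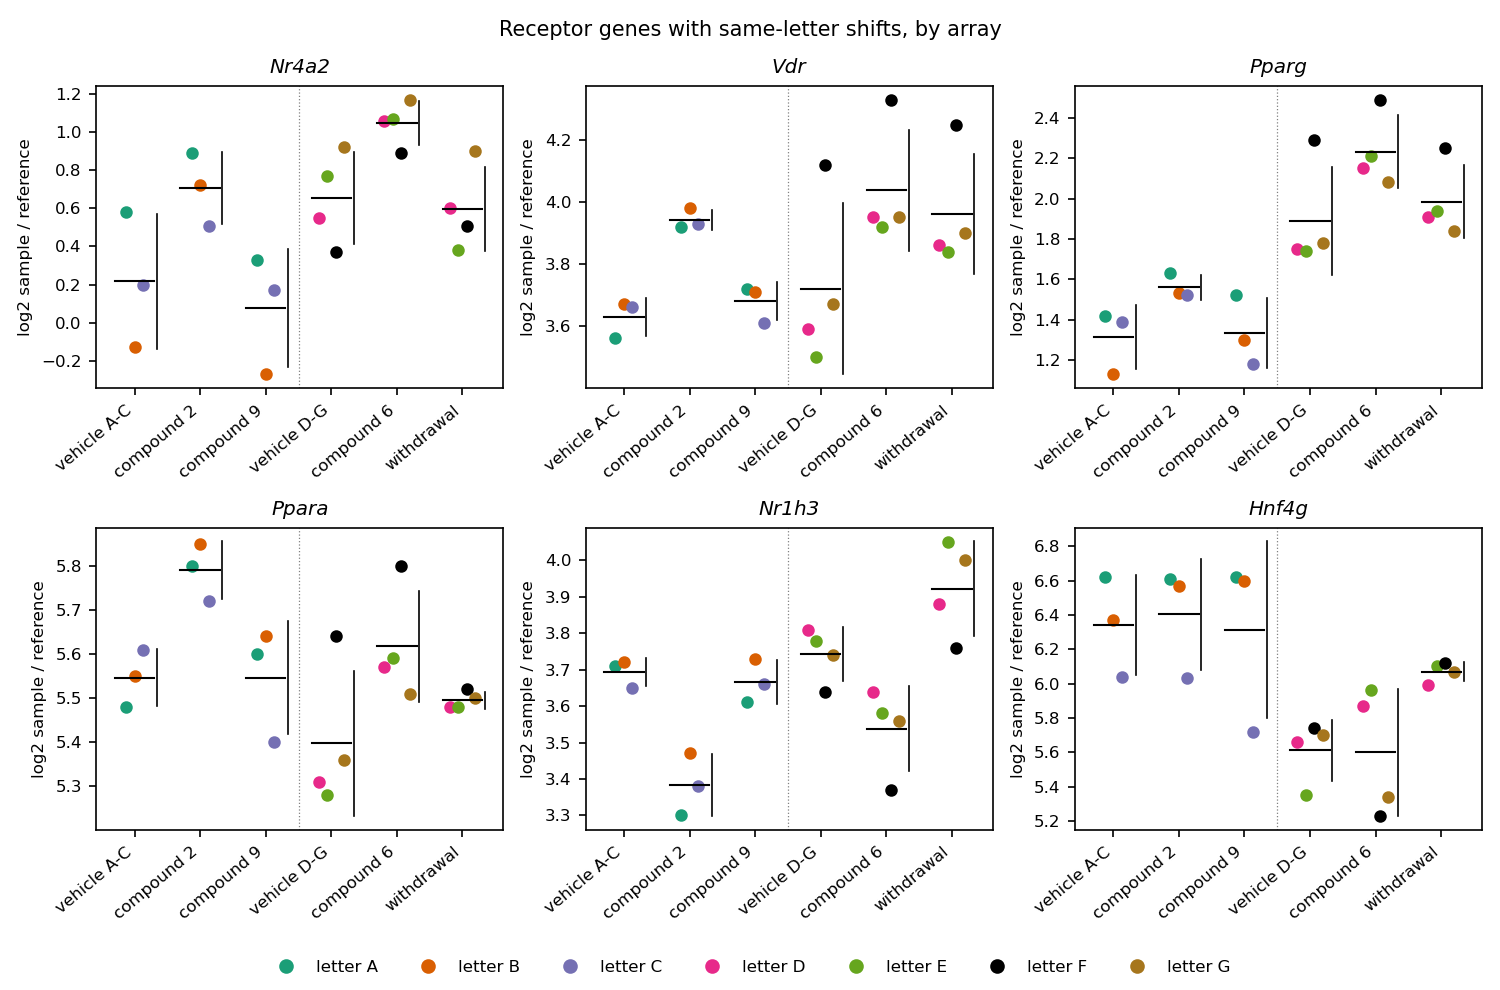
Log2 sample over reference of 6 receptor genes in each array, coloured by letter, with group means and SD drawn as in the plot of Rarg and Nr4a1. Vdr and Pparg of letter F (black) stand above letters D, E and G in vehicle, compound 6 and withdrawal alike, and every compound 6 array lies above the vehicle array of its letter for both.

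Letter F was the highest of letters D to G in all 3 groups for 6 receptors (Ppara, Ppard, Pparg, Nr1d1, Vdr and Nr4a1) and the lowest in all 3 for another 3 (Nr1h3, Rxrb and Nr2e3). Over all tested genes letter F was the highest in all 3 groups for 11.2% and the lowest for 20.3%, beside 16.2% and 8.11% of the receptors. The cell cycle list was lowest in letter F in the same groups, at -3.72, -3.48 and -4.01; its part in the receptor values was not tested. Nr2e3 lay at 1.51, 1.33 and 1.60 in vehicles D, E and G and at -0.02 in vehicle F, where it was not well above background. It was 2.04, 1.84, 0.16 and 1.20 with compound 6 and 1.03, 0.84, -0.02 and 0.76 after withdrawal; letter F was the lowest in each group. With the block the change after withdrawal was -0.45 (adjusted p = 0.02).

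The Rev-erb receptor Nr1d1, a repressor in the circadian clock, parted the letters differently. It lay at -0.04, -0.10, 0.78 and 0.75 in vehicles D, E, F and G, at 0.04, 0.06, 0.74 and 0.63 with compound 6 and at 0.19, 0.33, 1.00 and 0.95 after withdrawal. In each group letters D and E were below letters F and G, with means of 0.08 and 0.81 over 6 arrays each. Of 13 tested clock genes, 2 likewise did not overlap between these letters (a comparison chosen after the values were seen), as did 0.704% of all tested genes: Arntl (Bmal1), which Rev-erb represses, was lower in F and G (0.42 against 1.04), and Dbp, a clock output gene, was higher (-0.59 against -1.87). No label gives an hour of harvest. Within this pattern Nr1d1 was higher after withdrawal than in vehicle in 4 of 4 letters, by 0.27 ± 0.22 (adjusted p = 0.413; 0.00305 with the block), and Nr1d2 by 0.22 ± 0.12 (0.187; 0.0131 with the block). The probe used for Nr1d2 is placed on chromosome 19 in the file, while RefSeq has the gene on chromosome 14; the other probe, on chromosome 14, gave 0.26. Nr1d1 and Thra overlap on chromosome 11, and their probes are on opposite strands.

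**Figure D4:**
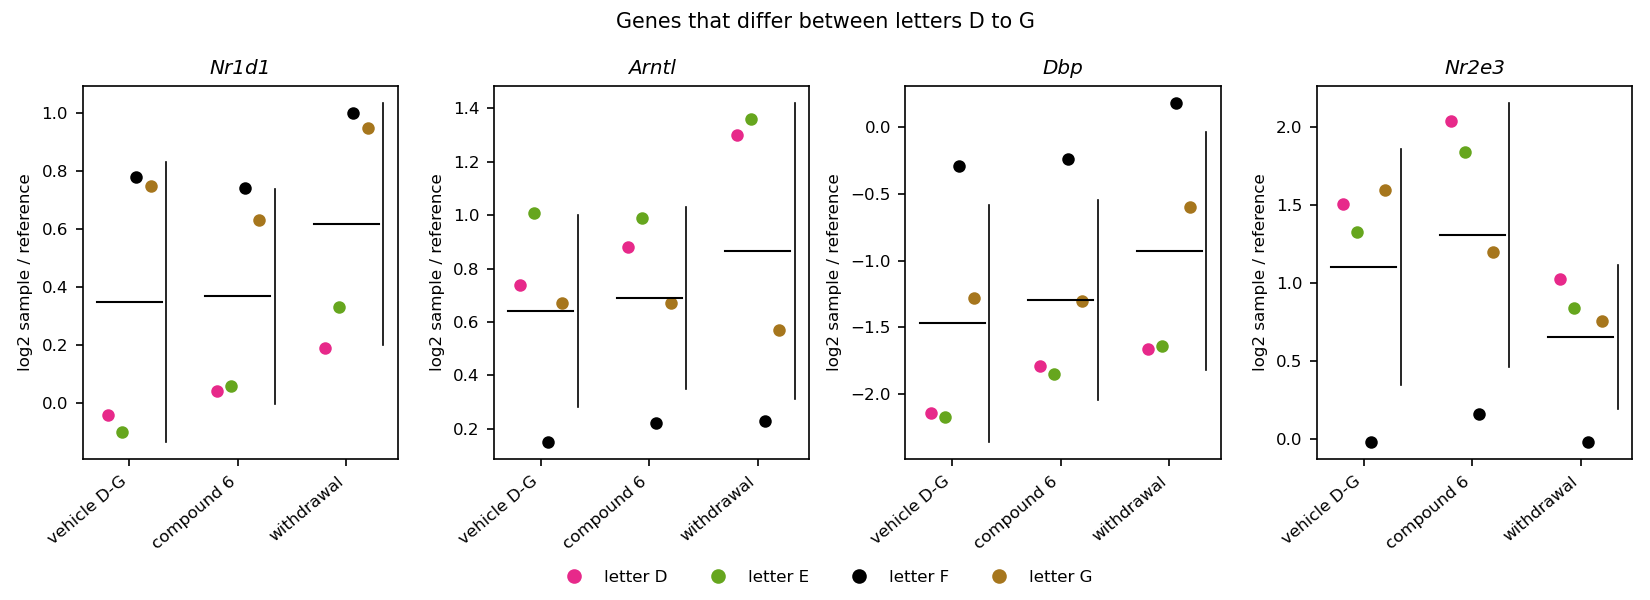
Log2 sample over reference of Nr1d1, Arntl, Dbp and Nr2e3 on the 12 arrays of letters D to G, coloured by letter, with group means and SD. Nr1d1 and Dbp are lower and Arntl is higher in letters D and E than in F and G in each group, while Nr2e3 is low in letter F.

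On their chosen probes, other receptors passed only with the block or not at all. After withdrawal Hnf4g, a regulator of enterocyte genes, rose from 5.66, 5.35, 5.74 and 5.70 to 5.99, 6.10, 6.12 and 6.07 in the block fit (0.46; adjusted p = 0.0186, and 0.112 without the block), without overlap between the groups. Hnf4a, its partner, changed by at most 0.10 in any comparison with vehicle. Rxrb, one of the 3 obligate partner genes, was at -0.25 after withdrawal (0.0833; 0.00143 with the block), and Rxra differed between compound 6 and withdrawal (-0.31; 0.103 and, with the block, 0.0329). The second probe of Rxra rose after withdrawal (0.23, adjusted p = 0.0249). Rara was at 0.17 after withdrawal (0.108; 0.0172 with the block). Nr0b2, a target of the bile acid receptor, was well above background on 4 of 4 withdrawn arrays and on 0 of 4 vehicle and 0 of 4 compound 6 arrays of the same letters. It was at least 1.18-fold brighter in Cy3 after withdrawal than in vehicle (open to dye bias, as dyes were not swapped). This bound takes the higher of the probe's own vehicle signal and that of the dimmest well-measured probes. The own vehicle mean and the bound were both 6.45 in log2, so the probe's own signal set the value. The fitted change of Nr0b2 passed only with the block (adjusted p = 0.0118, and 0.129 without). The remaining 11 tested genes passed in neither fit in any comparison. They are Nr1i2, Nr1i3, Hnf4a, Rxrg, Nr2c1, Nr2f1, Nr2f2, Nr3c1 (the glucocorticoid receptor), Nr3c2 (the mineralocorticoid receptor), Nr5a1 and Nr5a2, the crypt receptor LRH-1. Their changes against vehicle ran from -0.16 to 0.28, and their 95% intervals together from -0.54 to 0.76.

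Coregulators, the proteins that carry receptor signals, changed in both directions. Of 32 coactivators and corepressors, 4 rose and 11 fell with compound 6 (median -0.13, against -0.04 over all genes), and 3 rose and 8 fell after withdrawal (median -0.02), where Cy3 alone gave 6 and 3. That is 46.9% and 34.4% of the list, beside 24.9% and 20.7% of all genes, of which 2871 fell and 2431 rose with compound 6 and 2852 fell and 1554 rose after withdrawal. The corepressor Ncor1 rose by 0.81 ± 0.08 with compound 6 (adjusted p = 1.42e-06), 0.80 ± 0.09 with compound 2 (4.33e-05) and 0.36 ± 0.08 after withdrawal (0.00383). Prmt1, a methyltransferase coactivator, fell by 0.91 ± 0.18 with compound 6 (0.00121) and by 1.01 ± 0.18 after withdrawal (0.00104). With compound 6 Ncoa4 rose by 0.72 ± 0.16 (0.00282), while Bcor fell by 0.52 ± 0.08 after withdrawal (5.59e-04) and Sin3a by 0.49 ± 0.12 with compound 2 (0.0162); the values in parentheses are limma adjusted p. With compound 2, 2 coregulators rose and 2 fell of 32 (median -0.09); median centring gave 1 and 8. Compound 9 changed 0 of 32.

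The genes known as receptor targets were described by list, and the lists were chosen with results of these data known. Of 15 PXR and CAR targets, 8 rose and 0 fell with compound 6 (median 0.33), 4 rose and 0 fell with compound 2 (median 0.31), and 2 rose and 1 fell after withdrawal (median 0.24), while Nr1i2 and Nr1i3 passed nowhere. These are 53.3%, 26.7% and 20% of the list, beside 24.9%, 5.32% and 20.7% of all genes. The glutathione transferase Gstm1 rose by 1.79 ± 0.13 with compound 6 and by 2.11 ± 0.15 with compound 2, the drug-metabolising Cyp3a11 by 1.26 ± 0.22 and 0.95 ± 0.26, and Cyp2c55 by 0.98 ± 0.20 and 1.53 ± 0.24; after withdrawal Cyp2c55 fell by 1.51 ± 0.20. Of 15 LXR targets, 4 rose with compound 6 (median 0.24; 1 rose and 1 fell with median centring), 3 with compound 2 (median 0.25) and 0 after withdrawal, where 1 fell (median 0.03). With compound 6 that is 26.7% of the list, near the 24.9% of all genes, and with compound 2 it is 20% beside 5.32%. The desaturase Scd1 led them, at 1.77 ± 0.09 with compound 6 (adjusted p = 1.25e-09) and 1.44 ± 0.10 with compound 2 (1.27e-07), beside a value of Nr1h3 that was lower than in vehicle in each letter. Aldh1a1, which makes retinoic acid, rose by 1.13 ± 0.11 with compound 6, 0.83 ± 0.12 with compound 2 and 0.56 ± 0.11 after withdrawal, and was among 2, 1 and 3 of 16 retinoid genes that rose, with 0 falling.

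Other lists follow, to be read against 20.7% of all genes after withdrawal, 5.32% with compound 2 and 24.9% with compound 6. Of 22 PPAR targets, 3 rose and 1 fell with compound 6 and likewise after withdrawal, among them Cyp4a10 at -0.81 ± 0.18 after withdrawal, and 0 passed with compound 2; 18.2% of this list passed in each of the former, below the 24.9% and 20.7% of all genes. Of 19 HNF4 targets, 4 (21.1%, near the 20.7% of all genes) rose after withdrawal, led by lactase, Lct, at 0.63 ± 0.17, and 3 with compound 6, where Lct was at 0.97 ± 0.17; Cy3 alone gave 4 rising and 4 falling with compound 6. Of 13 ERR and PGC1 targets, 1 rose (Esrra itself) and 1 fell after withdrawal (Idh3a, -0.63 ± 0.15) and 0 passed with either compound. Of 13 clock genes, 4 fell with compound 6, of which Per1 was at -0.49 ± 0.10, and Per1 also fell with compound 2, by 0.72 ± 0.11. Of 6 thyroid genes 2 rose and 1 fell with compound 6: the hormone transporter Slc16a10 at 1.08 ± 0.14, Me1 at 0.79 ± 0.21 and the deiodinase Dio1 at -1.05 ± 0.36. Slc16a10 also rose with compound 2 (0.75 ± 0.17), 1 of 6. After withdrawal, where Thra and Thrb rose, 1 of the 6 thyroid genes rose and 0 fell (median -0.03). Of 6 vitamin D receptor targets 1 rose after withdrawal (Camp, 0.34 ± 0.10) and 0 with compound 6 or 2. Of 16 corticoid genes 3 rose and 3 fell with compound 6, with Sgk1 at 1.23 ± 0.34 and Ddit4 at -1.23 ± 0.22. Of 5 bile acid receptor targets 1 rose with compound 6 (Abcb4, 0.27 ± 0.09) and 0 after withdrawal. Of 14 genes that share the stimuli of the Nr4a group, 3 rose with compound 6, led by Klf6 at 0.59 ± 0.15, 3 rose and 1 fell after withdrawal, led by Klf4 at 0.72 ± 0.25, and 0 passed with compound 2. Of 10 Nr5a2 partners and targets, 1 rose and 4 fell after withdrawal (Myc, -2.08 ± 0.22) and 1 rose and 3 fell with compound 6 (Ccne1, -1.25 ± 0.27). With compound 9 none of the genes on these lists passed. On the PXR and CAR list (median 0.04 with compound 9) Cyp2c55 changed by 1.15 ± 0.24 (limma adjusted p = 0.791) and Cyp3a11 by 0.62 ± 0.26, neither of which passed.

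**Figure D5:**
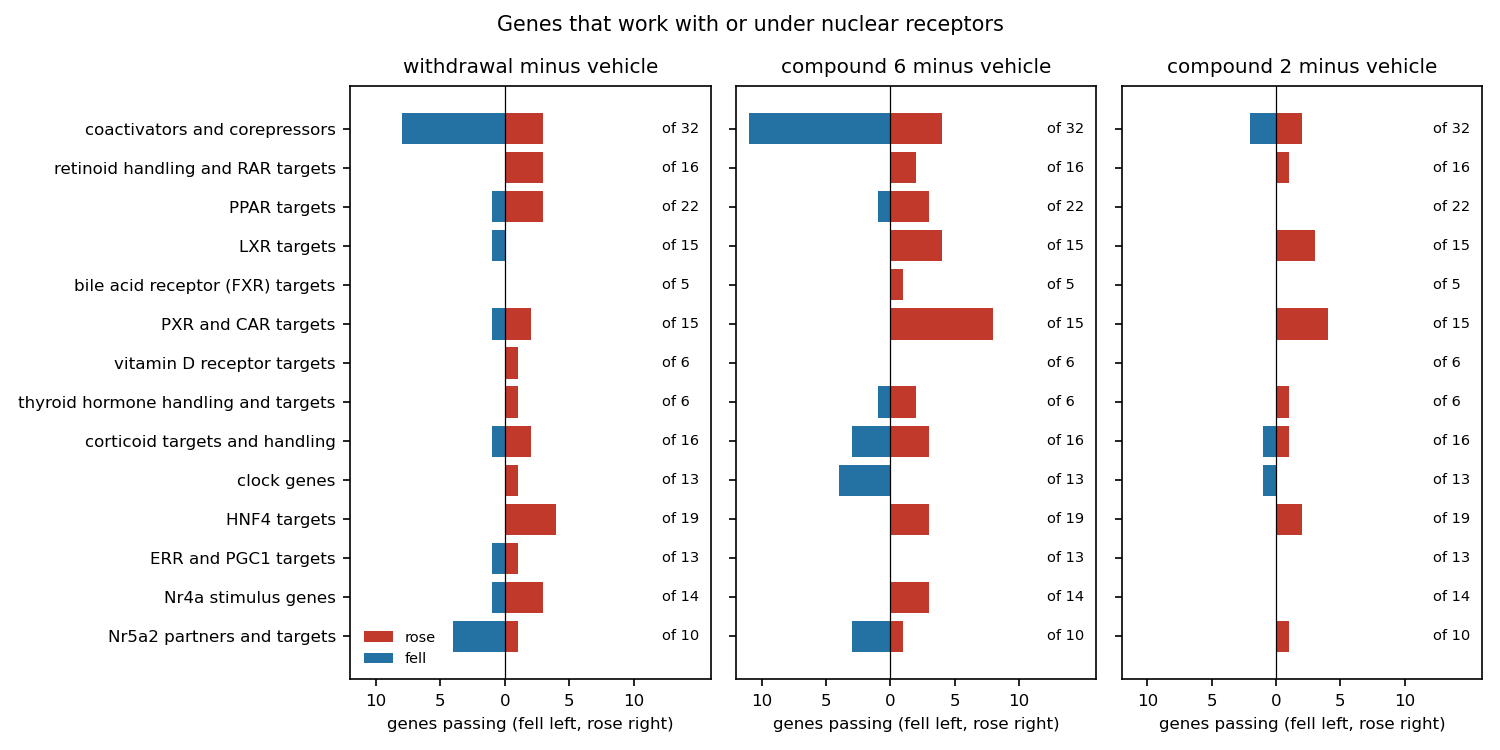
Number of genes in each list of receptor partners and targets that rose (red, to the right) or fell (blue, to the left) against vehicle; the number tested stands at the right of each bar. Coactivators and corepressors fell more often than they rose with compound 6, and 8 of 15 PXR and CAR targets rose with compound 6 and 4 of 15 with compound 2.

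Other cell markers moved with compound 6. Of 15 enteroendocrine markers 9 rose (per-array means of 3.45 to 3.57 in vehicle and 3.99 to 4.28 with compound 6), 5 of 9 goblet markers rose (3.68 to 3.86 and 4.02 to 4.27), 10 of 13 stem cell markers fell (1.01 to 2.20 and 0.52 to 0.95), and of 10 tested leukocyte markers 6 rose (-1.34 to -1.18 and -1.02 to -0.96). Of 7 tested fibroblast markers 4 rose (-5.60 to -5.49 and -5.43 to -5.21), of 15 enterocyte markers 4 rose (6.14 to 6.35 and 6.40 to 6.65), and of 15 cell cycle genes 5 fell and 1 rose (-3.72 to -1.65 and -3.48 to -2.65). In the order named these are 60%, 55.6%, 76.9%, 60%, 57.1%, 26.7% and 40% of the lists. Of all genes 24.9% passed, so the enterocyte share was near that of all genes. Under other scalings the sign turned for some passing markers. Gcg went from 1.93 to -0.32 in the series matrix, and Neurod1 from 0.65 to -0.09 with Agilent's log ratio and -0.23 in the series matrix. Muc2 went from 0.32 to -0.02 with Agilent's log ratio. With median centring Acta2 went from 0.19 to -0.00 and Cd68 from 0.17 to -0.04. The other passing markers of these lists kept their sign. The part of these markers in the receptor changes was not tested. With compound 2, 0 of 15 enteroendocrine markers and 1 of 9 goblet markers passed, and 4 of 13 stem cell markers fell and 1 rose. The last 2 are 11.1% and 38.5% of the lists, beside 5.32% of all genes. Only 4 of the 15 enteroendocrine markers were well above background on all 21 arrays. Their per-array means in vehicles A to C were 0.54 to 1.01, so the 0 does not show a measured lack of response to compound 2.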

How the data were processed

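RNA of 21 organoid cultures was hybridised to Agilent 2-colour arrays of 62976 spots, sample in Cy3 and universal mouse reference RNA in Cy5, with no dye swap. Per the file headers, Agilent Feature Extraction 10.7.3.1 gave the deposited spot intensities, flags and log10 ratios (red over green), with probe positions on mm9; the deposited series matrix holds log2 sample over reference, with its scaling and centring unknown. Intensities were background-corrected (normexp, offset 50) and loess-normalised in limma 3.58.1 (R 4.3.3), with 3671 control spots at weight 0, and the sign was turned to sample over reference. Non-uniform spots (157) were left out, spots of a probe averaged (55681 probes), the brightest probe kept for each gene name, and genes kept where 3 or more arrays had Cy3 well above background. Between 42.6% and 51.9% of spots were so in each array. All 21 arrays entered 1 fit of 5 groups with a term for the set of letters; tests were two-sided, Benjamini-Hochberg adjusted, at 0.05. The fit was tested on simulated data with independent noise and a shift between the sets. The simulation held no correlation between arrays of 1 letter, so it does not test the fit under that correlation.

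The receptor genes and all lists were chosen with earlier results of these data known. Receptors that passed with a log2 change of at least 0.5 against vehicle are described by array (Thrb, Esrrg, Rarg, Esr2 and Nr4a1), and some others after their values were seen; of each list at most the 3 largest passing changes are named per comparison, with the same gene's values in other comparisons beside them. The letters come from the sample labels. Arrays of 1 letter are taken as paired only in the fit with the letter as a block, not in the main fit. Over 21 same-letter pairs the deviations from group means correlated at 0.21 to 0.749 (median 0.53). The median over 54 other-letter pairs was -0.18. Taking deviations from group means makes these negative where same-letter pairs correlate, so the -0.18 is no separate evidence of pairing. Scan day and scanner each split the arrays exactly as the sets do, so they cannot be told apart from them; 5 slides were also tried as a block. Alternatives were the letter block, no set term, arrays left out, other background corrections, scalings and filters, the deposited ratios, and other probes. Promoters were matched by symbol to RefSeq sequences. Some items are not reported here.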

Additional observations from a re-analysis of the deposited data

Results flagged for a closer look

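Of 111 groups of 4 arrays examined over the 37 receptor genes, 12 held an array whose gap to the nearest other, as a share of the group's range, exceeded Dixon's critical value; chance alone gives about 5% of groups. Letter F was the array in 9 of the 12.

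In vehicle F, Ppard was at 0.73 against 0.09 to 0.15 (gap share 0.91), Pparg at 2.29 against 1.74 to 1.78 (0.921), Nr2e3 at -0.02 against 1.33 to 1.60 (0.831) and Nr2f6 at 1.36 against 1.46 to 1.47 (0.912). In compound 6 F, Vdr was at 4.33 against 3.92 to 3.95 (0.928), Rxrb at -0.65 against -0.36 to -0.30 (0.83), Nr2f6 at 1.08 against 1.27 to 1.30 (0.884) and Nr0b2, not above background there, at -0.18 against 0.23 to 0.30 (0.857). In withdrawal F, Vdr was at 4.25 against 3.84 to 3.90 (0.856). The other 3 were Nr1h2 in withdrawal D at 0.56 against 0.53 (0.897), Nr2c2 in withdrawal E at 0.82 against 0.91 to 0.93 (0.846) and Nr3c2 in compound 6 G at 0.72 against 1.07 to 1.12 (0.877).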

How the results depend on the processing

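With the letter as a replicate block the receptor genes past the threshold went from 6 to 16 after withdrawal, 1 to 6 with compound 2, 6 to 15 with compound 6, 0 to 6 between compounds 9 and 2, 1 to 2 between compounds 6 and 2 and 6 to 18 between compound 6 and withdrawal. Without the letter F arrays the first 5 counts were 13, 4, 10, 5 and 2. With no set term they were 3 after withdrawal, 4 with compound 2 and 12 between compounds 6 and 2. The last count compares arrays across the sets. Median centring gave 10 with compound 6, 1 between compounds 9 and 2, 0 between compounds 6 and 2 and 10 between compound 6 and withdrawal. Cy3 alone gave 11 after withdrawal, and Cy3 alone and the series matrix gave 1 each between compounds 9 and 2. With compound 2, no background correction, Agilent's ratio, the series matrix, no filter and a fit of the compared arrays alone each gave 0. Leaving out 1 array gave 3 to 11 after withdrawal, 0 to 2 with compound 2, 5 to 13 with compound 6, 0 to 1 between compounds 9 and 2, 1 to 2 between compounds 6 and 2 and 6 to 7 between compound 6 and withdrawal. Compound 9 against vehicle stayed at 0 throughout. The sign turned for Esrrg after withdrawal in the series matrix (0.20), and the cause was not tested. For Rarg between compounds 6 and 2 it turned with no set term (-0.26). That fit compares the arrays of these compounds directly across the sets. Over all genes the counts ran from 2071 to 8359 after withdrawal, against 4406, from 543 to 3714 with compound 2 (1134) and from 3076 to 8814 with compound 6 (5302). Probes near background have imprecise ratios. The scalings of the gene lists, and of Esrrg and Nr2c2 with compound 6, were chosen after seeing the data.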
